A study of Danio rerio with 4 samples.

Results

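PolyA-selected RNA was compared with ribo-depleted total RNA of zebrafish embryos at 1 hour post fertilization (1 hpf, the 4-cell stage), gene by gene. A gene was included when at least 100 reads had been assigned to it in at least 1 of the 2 libraries of that stage, which left 11565 of the 25769 genes in the table. Of these, 8344 had 100 or more reads in both libraries, 3147 entered through the ribo-depleted library alone, and 74 through the polyA+ library alone. A further 9732 genes had some reads but fewer than 100 in both libraries, and 4472 had no value in either. For each gene the share of polyA+ reads was divided by the share of ribo-depleted reads, and the log2 of this quotient is called the polyA+ ratio.

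An egg stores its mRNAs for use before its own genome is switched on. Many stored mRNAs are kept with short polyA tails, and translation is raised or lowered during maturation and early cleavage by lengthening or shortening the tail in the cytoplasm. Selection on oligo-dT retains RNA by its polyA tail, and disfavours or loses RNA with a short tail or none, such as replication-dependent histone mRNAs, which end in a stem-loop. Depletion of ribosomal RNA does not depend on a tail.

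All samples were pools of 25 AB/TL whole embryos that had received 4sU, a uridine analog, by injection at the 1-cell stage, and their RNA was treated with iodoacetamide for SLAM-Seq, which makes labeled T bases read as C. Embryos were sampled at 1 hpf and at a later stage that the study's methods give as 4.8 hpf (30% epiboly) and the sample labels as 6 hpf. The methods give 50 mM 4sU and the labels 20 mM. No sample without 4sU was used here. Each stage had 1 polyA+ library, made with a KAPA mRNA kit and read from one end on a NextSeq, and 1 library depleted with Ribo-Zero probes for human, mouse and rat RNA and read from both ends on a NovaSeq. Thus selection, kit, read layout and instrument cannot be told apart. The series text calls the samples technical replicates. With 1 library a side no difference was tested, and the 95% exact (Clopper-Pearson) intervals given with the ratios cover counting error only. Levels are given in RPM, reads scaled to a library total of 1000000. Where brackets follow a gene, they hold its polyA+ ratio and the interval. Read counts are estimates that carry fractions where reads were shared, so a gene whose counts are not whole is less certain.

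At 1 hpf the polyA+ library held 9058807 reads and the ribo-depleted library 22521675, and at 4.8 hpf they held 10212400 and 17814709. The tissue label was checked against marker genes. All 10 markers of stored egg RNA passed 100 reads, with a summed 0.663% of polyA+ and 0.539% of ribo-depleted reads, and their median ratio of -0.25 changed sign under TMM and DESeq2 scaling. The 10 markers of zygotic transcription together took 0.000327% and 0.000753%, with vent and spaca4l at 0 in both libraries and only krt8 above 100 reads (1.21 polyA+ RPM and 4.51 ribo-depleted RPM). Of the follicle cell markers, 5 were in the table and only cyp11a1 passed 100 reads (259 polyA+ RPM and 243 ribo-depleted RPM), while hsd3b1 was at 3.20 polyA+ RPM and 2.86 ribo-depleted RPM and gsdf, amh and lhcgr had at most 5 reads in a library.

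More genes had a lower share of reads in the polyA+ library than had a higher share. The median polyA+ ratio over the 11565 genes was -0.42, and the middle 50% lay between -1.26 and 0.33. The ratio was at least 2-fold lower in the polyA+ library for 3660 genes (31.6%) and at least 2-fold higher for 1189 genes (10.3%). For 2762 and 944 of these genes the counting interval lay wholly beyond 2-fold. The lower genes together took 7.99% of the polyA+ reads and 32.6% of the ribo-depleted reads, and the higher genes took 30.3% and 9.85%. In these bulk samples a share gives no absolute amount, and RNA per cell was not measured.

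The depth and the scaling bear on this balance. The ribo-depleted library was the deeper one, so a gene could enter through it with few polyA+ reads. Among the 8344 genes with 100 or more reads in both libraries the median was -0.12, with 1706 genes (20.4%) at least 2-fold lower and 1106 (13.3%) at least 2-fold higher. Scaling by edgeR's TMM factors moved every ratio up by 0.30 and gave 2775 lower and 1857 higher genes, and DESeq2 size factors moved it by 0.36 and gave 2613 and 2022. Since these factors move all genes alike, groups are described by their distance from the median of all genes. For the 8344 genes both moves were larger than the distance of the median from equal share, so its sign depends on the scaling. At the edge of the inclusion rule, the 190 genes whose larger count was 100 to under 110 reads had a median of -0.57, and the 211 genes at 90 to under 100 reads, left out, had a median of -0.48.

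**Figure D1:**
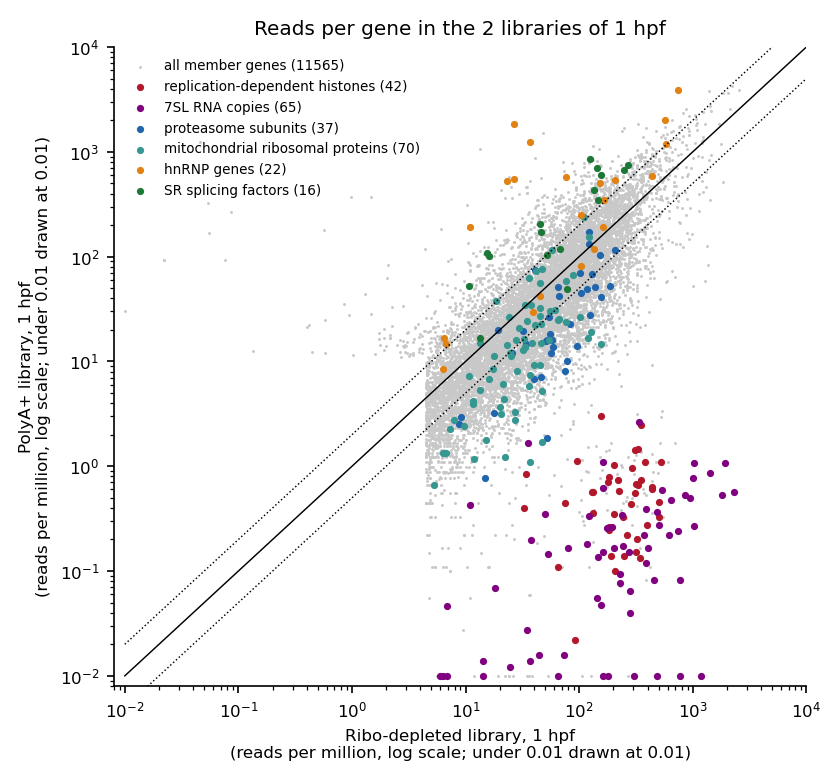
Level (RPM) of each of the 11565 genes in the ribo-depleted (x axis) and polyA+ (y axis) libraries of 1 hpf, on log scales. Solid line, equal share; dotted lines, 2-fold. Replication-dependent histones and 7SL RNA copies lie far below the lines, proteasome subunits and mitochondrial ribosomal proteins mostly below the solid line, and hnRNP and SR genes mostly above it.

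RNAs known to lack a polyA tail stood at the lower end. All 42 replication-dependent histone genes, which encode the core histones made during S phase, were at least 2-fold lower, against 31.6% of all genes. Their median polyA+ ratio was -8.95, with a range from -12.02 to -5.31. All 42 entered through the ribo-depleted library alone, which favours lower ratios. Summed over the list, 266 reads of the polyA+ library (0.00294%) stood against 241405 reads of the ribo-depleted library (1.07%), a 365-fold lower share. A core histone gene, hist2h3c, was at 2.45 polyA+ RPM and 353 ribo-depleted RPM, a polyA+ ratio of -7.17 (-7.84 to -6.58). No histone of this list exceeded 3.04 RPM in the polyA+ library. Histone genes have near-identical copies, and only 1 of the 42 had whole read counts in both libraries, so single copies are uncertain.

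Small structured RNAs gave the lowest values of all, and the 5 lowest single genes were rpph1 and 4 copies of 7SL RNA. Counts of exactly 0 were set to a floor of 3 reads, while fractions of a read were kept. The order among the lowest genes depends on this rule, since 115 of the 11565 genes had under 3 polyA+ reads. A list drawn up after the values had been seen held 80 copies annotated as 7SL RNA. This is the RNA of the signal recognition particle, which guides secreted proteins to the endoplasmic reticulum. The 65 copies that passed the read minimum, all through the ribo-depleted library alone, were all at least 2-fold lower. Their median was -10.34 with copies at 0 set to a floor of 3 reads. The 80 copies held 2.62% of ribo-depleted against 0.00197% of polyA+ reads. The copy with the most reads, rn7sl1, had 5.16 polyA+ and 52169 ribo-depleted reads, a polyA+ ratio of -11.99 (-13.58 to -10.79). The RNA of RNase P, rpph1, which trims tRNA precursors, had 0.750 and 8722 reads, a ratio of -12.19 (-19.03 to -9.42). The RNA of RNase MRP, rmrp, which takes part in ribosomal RNA maturation, had 0 polyA+ and 6099.5 ribo-depleted reads, at least 818-fold lower against a floor of 3 reads in the polyA+ library. The list of small structured RNAs holds 60 of the 65 7SL copies, RNase P and MRP RNAs and some U2, U3 and small nucleolar RNAs. Of its 547 genes in the table, 74 passed the read minimum, all through the ribo-depleted library alone. All 74 were at least 2-fold lower, against 31.6% of all genes. Entry through that library alone favours lower ratios, so this count is a description.

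Histone variants, which are expressed outside S phase and whose mRNAs in vertebrates usually carry a polyA tail, were split. Of 10 members, 2 were at least 2-fold lower and 4 at least 2-fold higher, against 31.6% and 10.3% of all genes. Under DESeq2 scaling 7 were higher. The median was 0.76 against -0.42 for all genes. The linker histone of the egg, h1m, was at 3804 polyA+ RPM and 1389 ribo-depleted RPM (polyA+ ratio 1.45, 1.43 to 1.48). The variant genes h2az2b and h3f3d, encoding H2A.Z and H3.3 proteins, stood highest, with h2az2b at 578 polyA+ RPM and 24.1 ribo-depleted RPM (4.59, 4.46 to 4.72). At the other end h2ax, which encodes the H2A.X protein that is phosphorylated at DNA breaks, was at 1.66 polyA+ RPM and 696 ribo-depleted RPM (-8.72, -9.55 to -7.99). The ratio of h2ax was thus within the range of the replication-dependent histones, while h2ax1 was at -2.21 (-2.53 to -1.91). The replication-dependent list itself held hist1h2a11.2 (-8.89), listed as h2ax2 in the symbol table, so the lists are not fully distinct.

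The 15 lowest ratios of abundant mRNAs were taken among 5189 named genes of 500 bases or more with at least 1000 reads in a library, outside the histone and small RNA lists. The first, named ano9a in the table and listed under a clone name in the symbol table, had 7.78 polyA+ and 11040 ribo-depleted reads (-9.16, -10.39 to -8.16), and its counts were not whole, so that its value and its name are uncertain. Next came tmsb5, a thymosin beta that binds actin monomers, at 9.16 polyA+ RPM and 433 ribo-depleted RPM (-5.56, -5.89 to -5.25). Then ppiab, a cyclophilin prolyl isomerase, was at 5.85 polyA+ RPM and 235 ribo-depleted RPM (-5.33, -5.75 to -4.94). Each of these genes had fewer than 100 polyA+ reads.

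Enzyme genes were also among the 15. The glycolytic enzyme gene gapdh was at 58.1 polyA+ RPM and 1288 ribo-depleted RPM, a 22.2-fold lower share (-4.47, -4.60 to -4.35). Lower ratios still were seen for nae1 (-5.19, -5.89 to -4.56), a subunit of the NEDD8-activating enzyme, etfb (-5.12, -5.78 to -4.53), of the mitochondrial electron transfer flavoprotein, and adsl (-4.50, -5.02 to -4.02), of purine synthesis. An alpha tubulin gene, tuba8l, was at 11.7 polyA+ RPM and 261 ribo-depleted RPM (-4.48, -4.77 to -4.20). The translocon subunit sec61g was at 10.1 polyA+ RPM and 221 ribo-depleted RPM (-4.45, -4.77 to -4.15). The set was completed by cct4 and psma1, taken up with their complexes, and by ube2q1, a ubiquitin-conjugating enzyme gene (-4.87, -5.24 to -4.53), mrps36, listed as kgd4 in the symbol table (-4.79, -5.61 to -4.07), znf277 (-5.11, -5.87 to -4.44) and faah2b, a fatty acid amide hydrolase gene (-4.63, -5.39 to -3.96). The highest upper end of an interval among the 15 genes was -3.96, in faah2b, far past 2-fold.

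**Figure D2:**
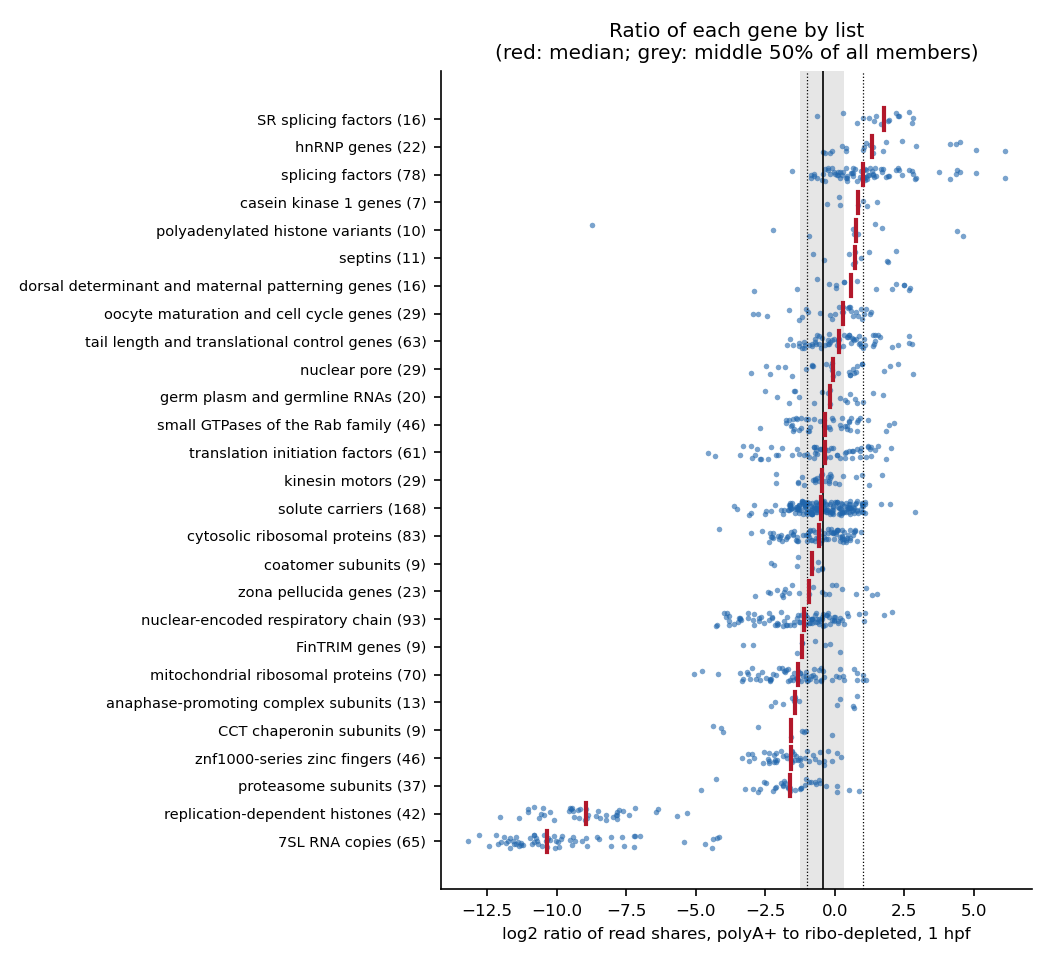
PolyA+ ratio at 1 hpf (log2, x axis) of every gene of 27 lists, 1 point a gene, with the number of genes in brackets. Red bars are list medians, the black line is the median of all genes (-0.42), the grey band their middle 50%, and dotted lines mark 2-fold. Medians run from -10.34 for 7SL RNA copies to 1.78 for SR splicing factors, and many lists spread over several log2 units.

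The list of subunits of the proteasome, the protease that degrades ubiquitin-tagged proteins, was low as a group. It also held assembly factors such as psmd5. Of 37 genes, 26 were at least 2-fold lower and 0 at least 2-fold higher, against 31.6% and 10.3% of all genes. The median polyA+ ratio was -1.62. Under both TMM and DESeq2 scaling 21 were lower and 1 higher. The lowest were subunits of the catalytic core, with psma1 at 1.88 polyA+ RPM and 52.1 ribo-depleted RPM (-4.80, -5.58 to -4.11) and psmb6 at 0.773 polyA+ RPM and 14.8 ribo-depleted RPM (-4.26, -5.58 to -3.20). Regulatory lid and base subunits were lower as well, such as psmd3 (-3.21, -3.57 to -2.88) and psmc4 (-1.83, -1.97 to -1.70). The exceptions were psma6a (0.88, 0.73 to 1.02), psmc3 (0.49, 0.40 to 0.58), psmb4 (0.09, -0.01 to 0.19) and psmd5 (0.06, -0.20 to 0.31), which lay above 0, so core and regulatory subunits were found at both ends. With 100 reads required in both libraries the median over 28 genes was -1.21.

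Other protein complexes, listed after the values had been seen, are given as a description. Of 9 entries for genes of the CCT chaperonin, which folds actin and tubulin, 8 were at least 2-fold lower, against 31.6% of all genes. Under both TMM and DESeq2 scaling 5 were lower, and the median was -1.56 without them. The subunit gene cct2 was entered more than once, at -1.18 and -1.03, so the entries are not all separate subunits. The ratio of cct4 was -4.37 (-4.72 to -4.05), at 8.39 polyA+ RPM and 174 ribo-depleted RPM, while cct8 was at -0.12 (-0.18 to -0.06). Of 13 subunits of the anaphase-promoting complex, the ubiquitin ligase that ends mitosis, 8 were at least 2-fold lower, led by anapc5 (-2.30, -2.64 to -1.98). The 5 others, anapc11, anapc13, anapc15, anapc16 and cdc27, lay between 0.09 and 0.79. All 9 coatomer genes, which coat vesicles of the Golgi, lay below 0, from -2.29 for copb1 to -0.45 for copb2, with 4 at least 2-fold lower.

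Nuclear genes for mitochondrial proteins were also low. Of 70 genes of the mitochondrial ribosome, 45 were at least 2-fold lower and 2 at least 2-fold higher (median -1.34). Of 93 genes for subunits and assembly factors of the respiratory chain and ATP synthase, 51 were lower and 4 higher (median -1.10). Over all genes the shares were 31.6% and 10.3%. For the mitochondrial ribosome, TMM scaling gave 37 lower and 6 higher, and DESeq2 scaling 33 and 6. For the respiratory chain these were 42 and 5 under TMM, and 40 and 5 under DESeq2 scaling. Among the respiratory chain genes, the ATP synthase beta subunit gene atp5f1b was at 52.3 polyA+ RPM and 1002 ribo-depleted RPM (-4.26, -4.39 to -4.13). Of the mitochondrial ribosome, mrpl20 was at 1.10 polyA+ RPM and 36.7 ribo-depleted RPM (-5.05, -6.12 to -4.17) and mrpl3 at 14.8 polyA+ RPM and 157 ribo-depleted RPM (-3.41, -3.67 to -3.16). Against this, mrps30 was at 240.0 polyA+ RPM and 109.9 ribo-depleted RPM (1.13, 1.04 to 1.21), and ndufv1, of complex I, at 115 polyA+ RPM and 55.5 ribo-depleted RPM (1.05, 0.93 to 1.17). Many of these genes entered through the deeper library, and with 100 reads required in both, the medians were -0.79 over 41 and -0.57 over 45 genes, against -0.12 for all such genes.

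Genes for the cytosolic ribosome stood near the median of all genes. Of 83 genes, 27 were at least 2-fold lower and 0 at least 2-fold higher, against 31.6% and 10.3% of all genes. Under TMM and DESeq2 scaling 5 were higher. The median was -0.56. The stalk protein gene rplp0 was at 30.2 polyA+ RPM and 242 ribo-depleted RPM (interval -3.18 to -2.83) and the large subunit gene rpl19 at 49.0 polyA+ RPM and 299 ribo-depleted RPM (-2.61, -2.75 to -2.47). At the other end rpl23, of the large subunit, was at 216 polyA+ RPM and 129.8 ribo-depleted RPM (0.73, 0.65 to 0.81). Genes for proteins of the same ribosome thus differed by several log2 units in their polyA+ ratio. The lowest of the list, rpl7l1 (-4.16, -4.41 to -3.92), is a paralog that is not a standard ribosomal subunit.

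Translation initiation factors, with their kinases and binding proteins, spread more widely than the genes for the cytosolic ribosome. Of 61 genes, 20 (32.8%) were at least 2-fold lower and 10 (16.4%) at least 2-fold higher, against 31.6% and 10.3% of all genes. Under TMM scaling 17 were lower and 14 higher, and the median without it was -0.37. Subunits of eIF3, the scaffold of the initiation complex, were among the low ones, with eif3d at 12.7 polyA+ RPM and 134 ribo-depleted RPM (-3.40, -3.68 to -3.13) and eif3ba at -3.29 (-3.47 to -3.13). Within eIF2, which brings the initiator tRNA, the alpha subunit gene eif2s1b was at 6.18 polyA+ RPM and 122 ribo-depleted RPM (-4.30, -4.71 to -3.92) and the beta subunit gene eif2s2 at 200.4 polyA+ RPM and 67.7 ribo-depleted RPM (1.57, 1.47 to 1.67). The subunit joining factor gene eif5b was at 1.82 (1.75 to 1.89).

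Of the zebrafish zinc finger genes numbered from znf1000 on, 46 of the 205 in the table passed the read minimum. Of the 46, 35 were at least 2-fold lower and 0 at least 2-fold higher, against 31.6% and 10.3% of all genes (median -1.57). The znf1000-series genes are repeated and only 5 of the 46 had whole counts, and 37 of the 46 entered through the ribo-depleted library alone. The finTRIM genes, a fish family of tripartite motif proteins, had 5 of 9 at least 2-fold lower, against 31.6% of all genes, and 3 under TMM and 2 under DESeq2 scaling. Of the 9, 5 entered through the ribo-depleted library alone. The lowest was ftr86 at 7.62 polyA+ RPM and 74.8 ribo-depleted RPM (-3.29, -3.66 to -2.95).

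At the upper end stood genes for RNA-binding and splicing proteins. Of 78 genes for splicing factors, 40 were at least 2-fold higher and 1 at least 2-fold lower, against 10.3% and 31.6% of all genes, with a median of 1.02. In lists split off after the values had been seen, the 16 SR protein entries, which bind exonic enhancers, had a median of 1.78 with 13 at least 2-fold higher. The 22 hnRNP entries, whose proteins coat nascent RNA, had 1.32 with 15. The name srsf3a was entered more than once, at 0.79 and 1.01, so the SR entries may not all be separate genes. Among the 15, hnrnpa0l.1 (1.13) is listed as gzf1 in the symbol table. The 78 genes held 3.04% of polyA+ and 1.16% of ribo-depleted reads. Members of one particle differed, since of the U2 particle sf3b3 was at 331 polyA+ RPM and 600.1 ribo-depleted RPM (-0.86, -0.92 to -0.80) and sf3b4 at 428 polyA+ RPM and 20.5 ribo-depleted RPM (4.38, 4.24 to 4.53).

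Single genes of this group reached the highest ratios among abundant mRNAs. The hnRNP gene hnrnpaba was at 1859.5 polyA+ RPM and 26.8 ribo-depleted RPM, a 69.3-fold higher share (6.12, 6.00 to 6.24), while its paralog hnrnpabb was at 3892 polyA+ RPM and 738 ribo-depleted RPM (2.40, 2.37 to 2.43). Next among hnRNP genes were hnrnpa1b (5.07, 4.97 to 5.17), hnrnpm (4.50, 4.37 to 4.63), hnrnpa1a (4.34, 4.22 to 4.47) and hnrnpa0b (4.14, 3.95 to 4.34). Another RNA-binding protein gene, taf15, of the FET family, had the highest ratio of the 5189 genes, at 1053 polyA+ RPM and 13.3 ribo-depleted RPM (6.31, 6.14 to 6.48). The paralogs of hnRNP A/B therefore differed by more than 3 log2 units.

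Among the 15 highest were further genes of RNA and chromatin. They included rbm4.3, an RNA-binding motif protein, at 1518 polyA+ RPM and 47.9 ribo-depleted RPM (4.99, 4.90 to 5.08), and sf3b4. Also among them were srrm1, a splicing co-activator (4.21, 4.08 to 4.34), cd2bp2, of the U5 particle (4.73, 4.44 to 5.05), hirip3 (4.90, 4.71 to 5.10), r3hdm1 (4.90, 4.64 to 5.16) and psip1b (3.85, 3.74 to 3.96). Among the genes named here, the lowest lower end of an interval was 3.74, in psip1b.

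Over all named genes, without a read minimum of 1000, the highest ratios were those of loci with few ribo-depleted reads. AL935186.10, of 432 bases, had 11178 polyA+ and 1.04 ribo-depleted reads (14.70, 12.27 to 19.83). The gene si:dkey-153m14.1 had 840.9 and 1.72 reads (10.24, 8.26 to 13.65), and zgc:158463 had 1634 and 12.7 (8.32, 7.54 to 9.25). None of these counts was whole, so their values are uncertain. NPC2, a cholesterol-binding protein of the lysosome, had 113 and 3 reads (6.55, 4.97 to 8.85).

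mRNAs with known maternal roles lay on both sides. Of the 3 factors that open the zygotic genome, nanog was at 2344 polyA+ RPM and 826 ribo-depleted RPM, a 2.84-fold higher share (interval of the ratio 1.48 to 1.53), and pou5f3 at 874 polyA+ RPM and 347 ribo-depleted RPM (1.33, 1.29 to 1.38). The third, sox19b, was at 389 polyA+ RPM and 668 ribo-depleted RPM (-0.78, -0.83 to -0.73). The counting intervals of nanog and pou5f3 lay above 2-fold and that of sox19b below 0.

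Of 29 genes of oocyte maturation and cell cycle control, 7 were at least 2-fold lower and 4 at least 2-fold higher, against 31.6% and 10.3% of all genes (median 0.28). The order of these counts turned over, to 4 lower and 8 higher, under both TMM and DESeq2 scaling. The mitotic kinase gene cdk1 was at 16.0 polyA+ RPM and 123 ribo-depleted RPM (-2.95, -3.20 to -2.71), whereas the gene of its partner cyclin B1, ccnb1, was at 3856 polyA+ RPM and 2573 ribo-depleted RPM (0.58, 0.56 to 0.60). The B-type cyclins differed among themselves, with ccnb3 at 16.6 polyA+ RPM and 112 ribo-depleted RPM (-2.75) and ccnb2 at 2261 polyA+ RPM and 1041 ribo-depleted RPM (1.12, 1.09 to 1.15). The chromosomal passenger subunit gene cdca8 was at -2.44 (-2.55 to -2.33), and mos, the kinase that holds the vertebrate egg at metaphase, at 24.0 polyA+ RPM and 75.7 ribo-depleted RPM (-1.65, -1.86 to -1.45). The high genes were cdc25b, a phosphatase that activates cyclin-dependent kinases (1.29, 1.23 to 1.36), wee2, an oocyte kinase that inhibits them (1.27, 1.21 to 1.32), ccnb2 and fbxo43, an inhibitor of the anaphase-promoting complex (1.06, 1.02 to 1.10). cdk1 and its activating phosphatase gene thus were the lowest and the highest of the list.

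Of 20 germ plasm and germline RNAs, 6 (30%) were at least 2-fold lower and 3 (15%) at least 2-fold higher. These shares were near the 31.6% and 10.3% of all genes. The median of the 20 RNAs, -0.17, changed sign, to 0.13 and 0.19, under TMM and DESeq2 scaling, where 5 were lower and 5 higher. The Bucky ball gene buc, whose protein organizes the germ plasm in zebrafish, was at 463 polyA+ RPM and 1298 ribo-depleted RPM (-1.49, -1.53 to -1.44). Some genes of the piRNA pathway were lower too, with asz1 at -2.52 (-2.73 to -2.32), tdrd1 at -2.08 (-2.24 to -1.92), tdrd9 at -1.63 (-1.87 to -1.41) and piwil2 at -1.42 (-1.55 to -1.28). Within 2-fold were tdrd6 at -0.77 and piwil1 at -0.47 (-0.60 to -0.34). The related genes tdrkh, at 0.17, and tdrd7a, at 0.71, were within 2-fold as well. Higher were ddx4, the vasa helicase, at 310.2 polyA+ RPM and 93.9 ribo-depleted RPM (1.72, 1.64 to 1.81), and dazl, an RNA-binding translational activator, at 556 polyA+ RPM and 216 ribo-depleted RPM (1.36, 1.31 to 1.42). For nanos3 the polyA+ ratio was -0.25 (-0.36 to -0.15) and for dnd1 0.45 (0.36 to 0.54), both within 2-fold.

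Maternal patterning genes leaned to the high side. Of 16 genes, 7 were at least 2-fold higher and 2 at least 2-fold lower, against 10.3% and 31.6% of all genes (median 0.57). The maternal dorsal determinant hwa, which stabilizes beta-catenin in zebrafish, was at 4.75 polyA+ RPM and 12.2 ribo-depleted RPM (-1.36, -1.86 to -0.89), and sybu, the transport linker syntabulin, at 38.9 polyA+ RPM and 288 ribo-depleted RPM (-2.89, -3.05 to -2.74). By contrast the beta-catenin genes were high, with ctnnb2 at 1853 polyA+ RPM and 328 ribo-depleted RPM (2.50, 2.46 to 2.54) and ctnnb1 at 1.48 (1.43 to 1.53), as was the repressor gene tcf7l1a (2.69, 2.49 to 2.89). The paralog tcf7l1b was at 0.04 (-0.26 to 0.33). Also within 2-fold were grip2a (0.81) and kif5ba (-0.22). The signal transducers smad5, of the BMP pathway (2.66, 2.60 to 2.72), and smad2, of the Nodal pathway (2.20, 2.13 to 2.27), and the T-box gene eomesa (2.50, 2.43 to 2.57) were high, while the Nodal partner ligand gdf3 was at 926 polyA+ RPM and 734 ribo-depleted RPM (0.34, 0.30 to 0.37). Thus hwa and sybu lay below equal share and both beta-catenin genes above it.

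Genes whose products set tail length or control translation had a median of 0.13, with 9 of 63 at least 2-fold lower and 15 at least 2-fold higher, against 31.6% and 10.3% of all genes. Under both TMM and DESeq2 scaling 3 were lower and 21 higher. The cytoplasmic polyA-binding protein gene pabpc1a was at 1694 polyA+ RPM and 249 ribo-depleted RPM (2.77, 2.72 to 2.81). Other translational regulators were high, with ybx1, a repressor bound to stored mRNA, at 2.67 (2.61 to 2.74), the decay factor patl1 at 2.25 (2.18 to 2.32) and larp1, which binds terminal oligopyrimidine mRNAs, at 2.04 (1.94 to 2.14). The cytoplasmic polyA polymerase gene tent2 was at 67.1 polyA+ RPM and 222 ribo-depleted RPM (-1.73, -1.85 to -1.60), and the deadenylase gene cnot6a at -1.60 (-1.69 to -1.51). The gene of the CPE-binding protein cpeb1b, which recruits the polyadenylation complex in Xenopus oocytes, was at 443 polyA+ RPM and 211 ribo-depleted RPM (1.07, 1.01 to 1.13). The deadenylation adaptor btg4 was at 274 polyA+ RPM and 622 ribo-depleted RPM (-1.18, -1.24 to -1.12). Within the deadenylase complex genes, cnot8 stood at 1.61 (1.57 to 1.66), on the other side from cnot6a.

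Zona pellucida genes, which encode the egg coat, spread widely. Of 23 genes, 11 were at least 2-fold lower and 3 at least 2-fold higher, against 31.6% and 10.3% of all genes (median -0.94). Genes of the zp3 type ranged from -2.88 for zp3e to 0.05 for zp3a.2, with zp3b at 99.4 polyA+ RPM and 286 ribo-depleted RPM (-1.53, -1.63 to -1.43). The 3 high genes were zp2.6, zp2.1 and zp2.3, with zp2.6 at 53.6 polyA+ RPM and 18.6 ribo-depleted RPM (1.52, 1.33 to 1.72). The counts of these 3 genes were not whole, so each of them is uncertain.

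Several large families lay close to the median of all genes, of which 31.6% were at least 2-fold lower and 10.3% at least 2-fold higher. Kinesin motors had 6 of 29 at least 2-fold lower and 2 higher (median -0.46), but 4 and 4 under TMM and 2 and 4 under DESeq2 scaling. Nuclear pore genes had 7 of 29 lower and 4 higher, but 6 and 8 under TMM and 6 and 10 under DESeq2 scaling, where their median of -0.06 changed sign, to 0.25 and 0.31. Solute carriers had 52 of 168 lower and 8 higher, but 32 and 20 under TMM and 27 and 23 under DESeq2 scaling. Rab GTPases had 15 of 46 lower and 4 higher, and 11 and 8 under both scalings, with a median of -0.36 that changed sign under DESeq2 scaling. Single members lay past 2-fold on either side, such as the nucleoporin genes nup153 at 774 polyA+ RPM and 109 ribo-depleted RPM (2.82, 2.76 to 2.89) and nup205 at 19.2 polyA+ RPM and 96.2 ribo-depleted RPM (-2.33, -2.56 to -2.11). The mitotic motor kif11 was at 356 polyA+ RPM and 895 ribo-depleted RPM (-1.33, -1.39 to -1.28). The transporter slc37a1 was at -3.51 (-3.85 to -3.20) and the endosomal rab5c at 1.94 (1.84 to 2.04).

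Apart from copies of 7SL RNA, the genes with the most reads had ratios between -1.86 and 2.40. The 10 genes with the most reads took 3.34% of polyA+ and 2.05% of ribo-depleted reads, respectively, and 5 genes were in both sets, among them the DNA methyltransferase dnmt1 (4230.3 polyA+ RPM and 2201 ribo-depleted RPM, ratio 0.94) and cyclin B1. In the polyA+ set hnrnpabb and h1m were at least 2-fold higher, as was cth1, a zinc finger protein gene (1.56, 1.54 to 1.59). In the ribo-depleted set, which held 3 copies of 7SL RNA, acp5a, an acid phosphatase, was at 509.8 polyA+ RPM and 1853 ribo-depleted RPM (-1.86, -1.91 to -1.82) and the chaperone hspa8 at -0.59 (-0.62 to -0.56).

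Gene length separated the shortest genes from the rest. Among the 254 genes under 500 bases the median ratio was -7.28, and it was -2.41 for the 144 of them outside the histone and small RNA lists. For the 35 of the 254 genes with 100 reads in both libraries it was 0.34. Above 500 bases the medians ran from -0.67 (500 to under 1000 bases, 960 genes) over -0.33 (2000 to under 4000 bases) to -0.54 (8000 bases or more, 371 genes). The part of length in the ratio was not tested.

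**Figure D3:**
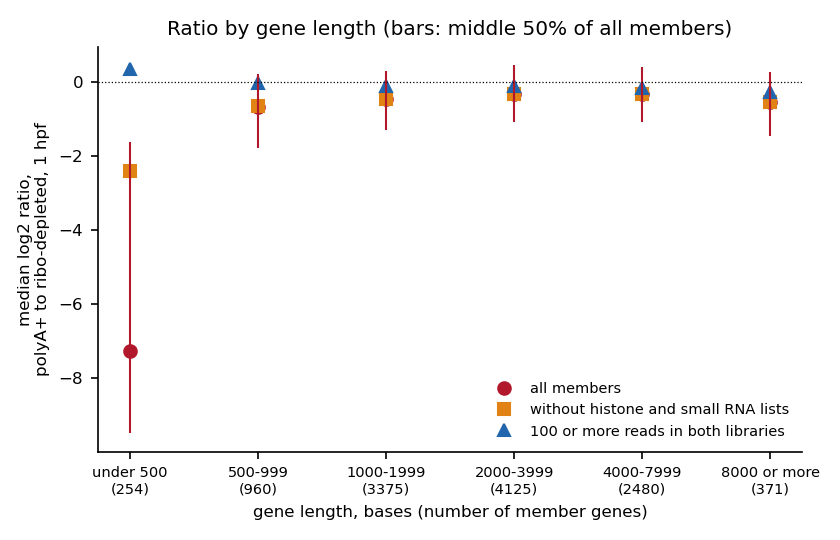
Median polyA+ ratio at 1 hpf (log2, y axis) by gene length (x axis, with the number of genes), for all genes, without the histone and small RNA lists, and for genes with 100 reads in both libraries. Vertical bars are the middle 50% of all genes. Medians of all genes are -7.28 under 500 bases and between -0.67 and -0.33 in the other bins.

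The same pair of library types was compared at 4.8 hpf. In the 10163 genes with 100 reads in a library of each stage, 3090 (30.4%) were at least 2-fold lower and 1124 (11.1%) higher at 1 hpf, and at 4.8 hpf 9.83% were lower and 766 (7.54%) higher. Their median was -0.38 at 1 hpf and -0.11 at 4.8 hpf. Over the 11239 genes with 100 reads in a library of 4.8 hpf 9.65% were lower and 7.95% higher at that stage. Of the 3090 lower genes, 762 (24.7%) were also lower at 4.8 hpf and 2317 were then within 2-fold. Of the 1124 higher genes, 533 (47.4%) were also higher and 585 (52.0%) within 2-fold. In these sets a gene could enter either stage through the deeper ribo-depleted library alone. Over the 7376 genes with 100 reads in all 4 libraries the medians were -0.11 at 1 hpf and -0.005 at 4.8 hpf. Of the 7376, 20.6% were lower and 13.7% higher at 1 hpf, and 4.99% lower and 8.73% higher at 4.8 hpf. Their ratios at the 2 stages had a Pearson r of 0.66 and a Spearman rho of 0.61, as a description across genes that share libraries.

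For the 2317 genes that were lower at 1 hpf and within 2-fold at 4.8 hpf, both library types differed between the stages. Their median log2 change between stages was 0.79 in polyA+ RPM and -0.68 in ribo-depleted RPM. PolyA+ RPM was at least 2-fold higher at 4.8 hpf for 995 of them, and ribo-depleted RPM for 68. Over the 10163 genes of both stages the median changes were -0.02 and -0.35, and 18.6% and 5.94% were at least 2-fold higher. The new-to-total ratio (NTR) of GRAND-SLAM is an estimate of how much of a gene's RNA carries the label. Of the 2317 genes, 911 had an NTR of 5% or less in the 4.8 hpf ribo-depleted library. Among these, polyA+ RPM was at least 2-fold higher for 296 and ribo-depleted RPM for 0. With unlabeled reads only, 2207 of the 3090 genes were within 2-fold at 4.8 hpf. Some reads counted as labeled already at 1 hpf, to a share that differed by library type. In the 3660 lower genes it came to 2.57% of ribo-depleted and 0.263% of polyA+ reads. Ratios of unlabeled reads, here and below, carry this difference. The 2317 genes were chosen by the ratios themselves, and the 911 also by the NTR of the 4.8 hpf ribo-depleted library. Both choices favour a rise in polyA+ RPM over one in ribo-depleted RPM, so the changes are a description.

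**Figure D4:**
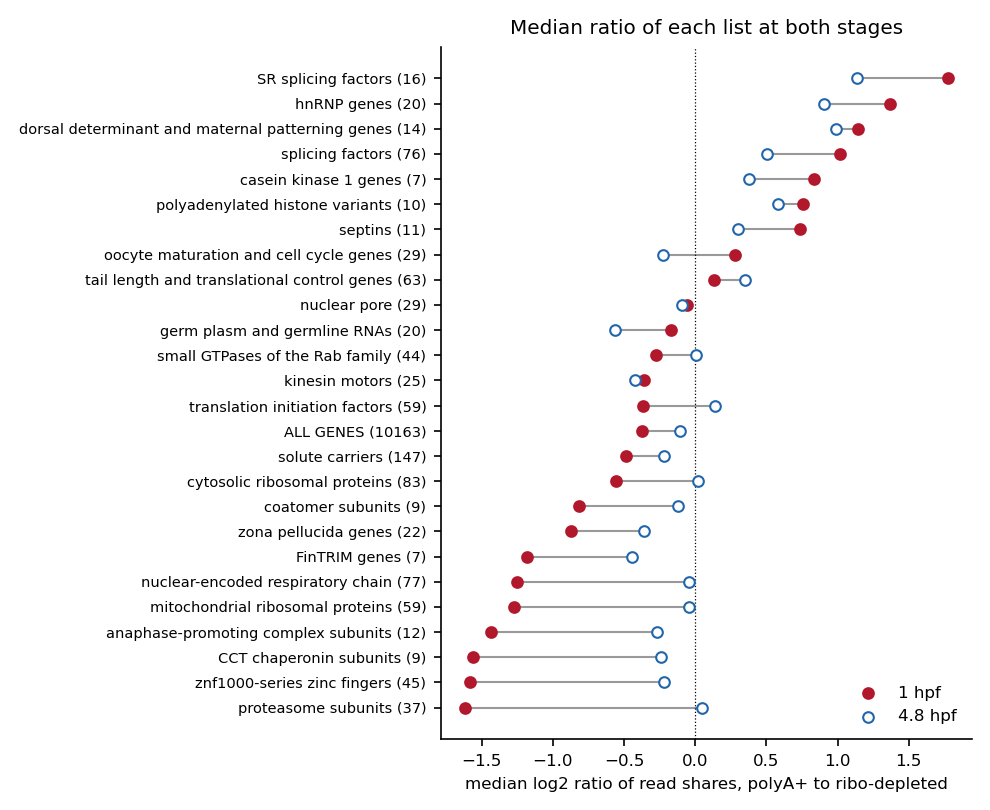
Median polyA+ ratio (log2, x axis) of 25 lists and of all genes at 1 hpf (filled red) and 4.8 hpf (open blue), over genes with 100 reads in a library of each stage (number in brackets). The proteasome list lies at -1.62 at 1 hpf and 0.05 at 4.8 hpf, while SR splicing factors lie at 1.78 and 1.13.

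The low lists of 1 hpf differed in this respect. The proteasome list had a median ratio of -1.62 at 1 hpf and 0.05 at 4.8 hpf, with 26 and 0 of 37 genes at least 2-fold lower. The difference between the stages was negative for 34 of the 37, and its median was -1.54, against -0.23 over all genes, of which 21.9% had a difference of -1 or less and 5.58% of 1 or more. In polyA+ RPM the proteasome genes were higher at 4.8 hpf by a median log2 of 1.32, and in ribo-depleted RPM the median change was -0.23. With unlabeled reads alone the median difference was -1.29, and TMM factors over the 4 libraries moved every difference between stages up by 0.20. At 4.8 hpf replication-dependent histones were at -9.03 and 7SL copies at -10.28.

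Lists of mitochondrial and translation genes were closer to 0 at 4.8 hpf as well. The mitochondrial ribosome was at -1.27 and -0.04 over 59 genes, and the respiratory chain at -1.25 and -0.05 over 77. For the mitochondrial ribosome the median log2 change was 0.07 in polyA+ RPM and -1.14 in ribo-depleted RPM, whereas for the proteasome the larger change was that of polyA+ RPM. Cytosolic ribosomal proteins were at -0.56 and 0.02, and znf1000-series genes at -1.58 and -0.22. The median NTR of the znf1000-series genes in the 4.8 hpf ribo-depleted library was 53.9%, and its part in their ratio was not tested. Over all genes, those with an NTR above 50% there had a median ratio of -1.02 at 1 hpf, and those with 1% or less -0.41.

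Single genes are given in the 4 libraries. The proteasome gene psma1 was at 1.88 RPM at 1 hpf and 18.9 at 4.8 hpf in polyA+ RNA, and at 52.1 and 24.4 in ribo-depleted RNA. Its NTR in the 4.8 hpf ribo-depleted library was 42.7%. cct4 was at 8.39 and 112 RPM in polyA+ RNA, and at 174 and 132 in ribo-depleted RNA, with an NTR of 49.4%. For both genes the polyA+ level at 4.8 hpf came close to the ribo-depleted level, and at 1 hpf it was 20.7-fold below in cct4 and 27.8-fold below in psma1. Each was the lowest of its list at 1 hpf, with 17 polyA+ reads for psma1 and 76 for cct4. This choice by the ratio favours a value nearer equal share at 4.8 hpf, so the levels are a description.

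The 5 most negative differences between stages, among the 3274 genes that met the same criteria (named, 500 bases, 1000 reads) at both stages, were those of tmsb5 (-4.41), gtpbp4 (-4.20), a nucleolar GTPase, cct4 (-4.14), tuba8l (-3.98) and sec61g (-3.87). tmsb5 was at 9.16 and 30.4 RPM in polyA+ RNA, and at 433 and 67.4 in ribo-depleted RNA, and its NTR at 4.8 hpf was 0. gtpbp4 was at 9.38 and 129 RPM in polyA+ RNA, and at 154 and 115 in ribo-depleted RNA, with an NTR of 50.5%. The part of labeled RNA in these differences was not tested.

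At the other end stood mRNAs whose ratio was above 0 at 1 hpf and below 0 later. trim36, a ubiquitin ligase gene with a maternal role in dorsal axis formation in Xenopus, was at 621 and 35.0 RPM in polyA+ RNA, and at 268 and 123 in ribo-depleted RNA. Its ratio was 1.21 at 1 hpf and -1.81 at 4.8 hpf. The next were fbxo43 (1.06 and -1.63), tent4a, a noncanonical polyA polymerase gene (1.09 and -1.48), raver1, a splicing cofactor gene (1.32 and -1.21), and pcnt, a centrosome scaffold gene (0.82 and -1.58). In trim36 the polyA+ level at 4.8 hpf was 0.0562 times that at 1 hpf, and the ribo-depleted level 0.458 times.

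**Figure D5:**
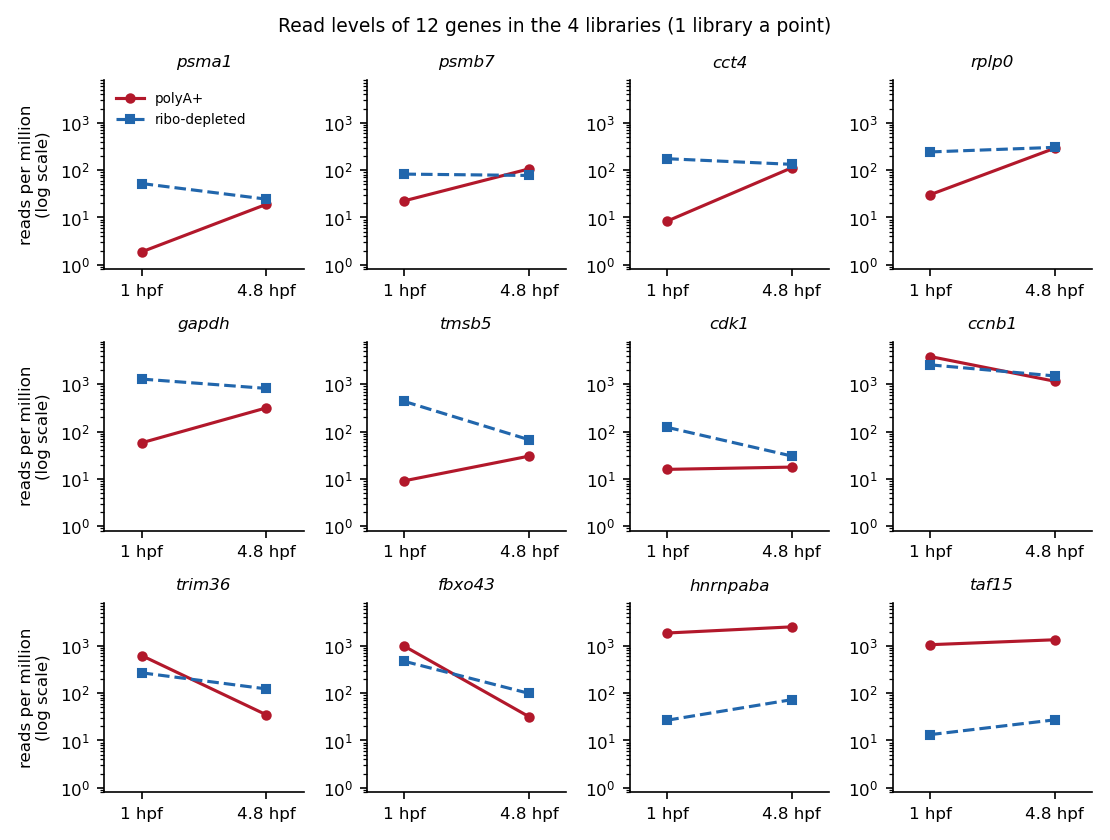
Read levels (RPM, log scale) of 12 genes at 1 hpf and 4.8 hpf in polyA+ (red circles, solid) and ribo-depleted (blue squares, dashed) libraries, 1 library a point. In psma1, cct4 and rplp0 the polyA+ point lies far below at 1 hpf and close at 4.8 hpf, in trim36 and fbxo43 the order turns over, and in hnrnpaba and taf15 polyA+ lies above at both stages. At 1 hpf psma1 and cct4 were the lowest of their lists, with 17 and 76 polyA+ reads.

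The high lists kept part of their distance. Splicing factors were at a median of 1.02 at 1 hpf and 0.50 at 4.8 hpf, where 22 of 76 were at least 2-fold higher, against 7.54% of all genes. hnrnpaba was at 1859.5 and 2508 RPM in polyA+ RNA, and at 26.8 and 72.8 in ribo-depleted RNA, so that its ratio was 6.12 and 5.11. taf15 had ratios of 6.31 and 5.62. Among maternal regulators, ddx4 stayed high (1.72 and 1.78), while dazl did not (1.36 and -0.62).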

How the data were processed

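Bulk SLAM-Seq reads of 4 libraries were trimmed by the authors (cutadapt 3.5), aligned to GRCz11 (STAR 2.7.10a) and passed to GRAND-SLAM 2.0.5f with Ensembl release 102. The authors deposited estimated counts, which are raw and can hold fractions where reads were shared. The authors also deposited the NTR, a fraction, the coverage of T bases and the T-to-C conversions. The table's sample names give the stage only and its dataset names the instrument, which the labels tie to the library type; no replicate number is given. Reads were 75 nt single-end (polyA+) and 100 nt paired-end (ribo-depleted).

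Estimated counts were divided by the library total. A side at 0 was set to a floor of 3 reads. Intervals are 95% Clopper-Pearson and cover counting error only, and PCR reads are not independent molecules. Genes with 100 or more reads in at least 1 of the 2 libraries were members, and 2-fold was the size counted. The members, lists and tests were chosen with earlier results of these data known. The lists of proteasome subunits, small structured RNAs and Rab genes were corrected after the data were seen to leave out other genes, and 8 lists were added then. Of the members, 11304 carry a name in the table, 203 were named through a symbol table and 58 have none. Counts within 1e-06 of an integer were called whole, and no column of another sample was used (0 such columns). No genome was used, so no sequences or positions are given.

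Named genes are the 5 lowest and 5 highest ratios among all named members, the 15 lowest and 15 highest among symbols of 500 bases or more with 1000 reads in a library outside the histone and small RNA lists, the 10 genes with the most reads of each library, the 5 largest stage differences in each direction under the same criteria, and list members at the extremes or needed to tell members apart. Some genes that this rule names are not reported here. Alternatives changed the scaling (edgeR 4.0.16 TMM, DESeq2 1.42.0 size factors, totals without short genes), the read minimum, whole counts, and unlabeled reads only (the count times 1 minus the NTR). The ratio and its interval were tested on simulated counts that held counting error only. That simulation did not cover shared reads, PCR copies or differences between kits. Python 3.11.15, numpy 2.4.6, pandas 2.3.3, scipy 1.17.1 and R 4.3.3 were used.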

Additional observations from a re-analysis of the deposited data

Results flagged for a closer look

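The polyA+ ratio had opposite signs past 2-fold at the 2 stages for a small number of genes. It was at least 2-fold higher at 1 hpf and at least 2-fold lower at 4.8 hpf for 6 genes, and the reverse held for 11. With 1 library of each type and stage, the difference between the stages was not tested. Among abundant named genes the difference between stages was 3.02 for trim36, 2.69 for fbxo43, 2.57 for tent4a and 2.53 for raver1, all high at 1 hpf. It was -2.10 for cct7, a chaperonin subunit gene (66.1 and 293 RPM in polyA+ RNA, 142 and 146 RPM in ribo-depleted RNA). It was -2.47 for dab2, an endocytic adaptor gene (80.9 and 120.2 RPM in polyA+ RNA, 164 and 44.1 RPM in ribo-depleted RNA). Unlabeled reads alone gave 3.05 for trim36 and -2.45 for dab2.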

How the results depend on the processing

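No paired analysis was possible because the replicate numbers of the labels are not carried by the deposited table, and no result comes from a test. Leaving out a library was not possible with 1 library of each type. The count of genes at least 2-fold lower moved from 3660 to 1706 with 100 reads in both libraries, to 1752 with 1000 reads in at least 1 and to 2227 among the 7466 genes with whole counts. That of higher genes moved from 1189 to 1857 with TMM factors, 2022 with DESeq2 size factors, 700 with 1000 reads and 769 with whole counts. Fewer genes were counted under the read and whole-count settings. The median of mitochondrial ribosomal proteins moved from -1.34 to -0.98 with DESeq2 factors and to -0.79 with 100 reads in both libraries. That of the respiratory chain moved from -1.10 to -0.80 with TMM, -0.74 with DESeq2 factors and -0.57 with 100 reads in both, and that of splicing factors from 1.02 to 1.32 and 1.38 with TMM and DESeq2 factors. The other counts over all genes stayed within 1.5 times, though TMM and DESeq2 factors lowered that of lower genes to 2775 and 2613. Counts within some lists moved further under TMM and DESeq2 factors. Lower kinesin genes went from 6 to 4 and 2, and higher solute carriers from 8 to 20 and 23, while all 42 histones stayed lower. The median stage difference of histones, -0.04, changed sign to 0.17 with unlabeled reads and 0.16 with TMM factors over the 4 libraries. Unlabeled reads gave 3713 lower and 1196 higher genes. The median over all genes, with alternatives chosen after seeing the data and changed 1 at a time, lay between -0.49 and -0.06. With 100 reads in both libraries the median was -0.12. The TMM and DESeq2 shifts of 0.30 and 0.36 are larger than this distance from equal share, so both changes together would turn its sign. Depth limits genes near 100 reads: at 100 reads in both libraries the ratio is 1.31.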

Other observations

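Gene groups picked out after their values had been seen, and so given as values only, include septins and casein kinase 1 genes. Of all genes, 10.3% were at least 2-fold higher at 1 hpf. All but 2 of the 11 septins, GTP-binding filament proteins of cytokinesis, lay above 0, with a median polyA+ ratio of 0.73 and 4 at least 2-fold higher (7 under TMM and 8 under DESeq2 scaling). The highest, sept7a, was at 213 polyA+ RPM and 46.7 ribo-depleted RPM, and sept9a was at 699 polyA+ RPM and 186 ribo-depleted RPM. Of the 7 casein kinase 1 genes, 3 were at least 2-fold higher, with csnk1db at 752 polyA+ RPM and 262 ribo-depleted RPM, and only csnk1g2b lay below 0 (-0.27). At 4.8 hpf the medians of both lists were 0.30 and 0.37.

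Further oocyte genes are given by their values at 1 hpf. The egg claudin genes cldng and cldnd were at ratios of 0.08 and 0.84, and the growth factor genes bmp15 and gdf9 at -0.16 and 0.11. mcm3l, an egg paralog of a replicative helicase subunit, was lower (90.6 polyA+ RPM and 334 ribo-depleted RPM).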
